A study of Mus musculus with 4 samples.

Results

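The clock genes described here are 10 components and direct outputs of the circadian clock: Per1, Per2, Per3, Cry1, Cry2, Dbp, Tef, Nr1d1, Nr1d2 and Ciart. They were taken by name, and every non-control probe whose RefSeq accession belongs to one of them was used, which gave 18 probes for these 10 of 22911 named genes on the array. All 18 probes were well above background on all 4 arrays, and all passed the filter on dim probes. The arrays hold cerebellum RNA of C57BL/6 mice at postnatal day 28. The 2 control mice were Derlin-2 flox/flox, and the 2 Derlin-2 knockout (KO) mice came from crosses with mice whose Cre recombinase is driven by the nestin promoter, a promoter of neural precursor cells. Derlin-2, encoded by Derl2, is a membrane protein of the endoplasmic reticulum that takes part in the disposal of misfolded proteins. Whether the control mice carried Cre, the sex of the mice and the hour at which they were killed are not given in the sources used here.

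The clock is a feedback loop of transcription. ARNTL (also called BMAL1) pairs with CLOCK and switches on the Period and Cryptochrome genes, whose proteins return to the nucleus and shut that pair off, so that the transcripts rise and fall once a day. A second loop runs through the nuclear receptors NR1D1 and NR1D2 (REV-ERB alpha and beta), which repress Arntl, and a further set, the PAR bZIP factors DBP, TEF and HLF with their opponent NFIL3, passes the rhythm on to other genes. Cells of the cerebellum keep such clocks, and because the members peak at set times of day, their levels also depend on when the tissue was taken.

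The ARNTL-CLOCK pair binds the E-box, CACGTG, and the PAR bZIP factors bind the D-box, searched here as TTATGTAA and TTACGTAA. Both strands were searched in the RefSeq promoter windows (300 bases around a transcript start, build GRCm38.p6), of which 9 members have at least 1, 11 in all. An E-box stood in 5 of the 11 windows, against 7.15% of all 32851 windows of the same length, and a D-box in 1 of the 11, against 1.06%. The search also covered the cAMP response element, TGACGTCA, with 0 of 11 windows against 1.79% of all, and the core of the element bound by NR1D1, TAGGTCA or TGGGTCA, with 0 of 11 against 6.45%. The windows below carry these matches in capitals, with the rest in lower case, read 5′ to 3′ on the strand of the gene. Ciart is shown for its 3 E-boxes, and the other 3 show the single E-box and the D-box form. Tef, with an E-box in each of its 2 windows, is not shown. A match describes the letters alone.
Ciart, chr3:95882179-95882478, minus strand: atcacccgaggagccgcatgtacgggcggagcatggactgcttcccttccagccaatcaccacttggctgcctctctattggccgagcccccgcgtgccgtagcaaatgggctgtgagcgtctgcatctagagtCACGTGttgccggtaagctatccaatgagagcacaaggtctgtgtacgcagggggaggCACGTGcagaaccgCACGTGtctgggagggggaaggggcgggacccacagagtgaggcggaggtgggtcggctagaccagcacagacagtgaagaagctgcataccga
Per1, chr11:69098699-69098998, plus strand: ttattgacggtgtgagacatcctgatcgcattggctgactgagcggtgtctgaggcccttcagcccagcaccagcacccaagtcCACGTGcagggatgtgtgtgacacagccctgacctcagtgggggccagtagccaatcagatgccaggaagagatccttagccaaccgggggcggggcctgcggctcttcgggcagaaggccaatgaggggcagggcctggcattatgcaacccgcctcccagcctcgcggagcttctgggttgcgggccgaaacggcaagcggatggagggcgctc
Cry1, chr10:85185005-85185304, minus strand: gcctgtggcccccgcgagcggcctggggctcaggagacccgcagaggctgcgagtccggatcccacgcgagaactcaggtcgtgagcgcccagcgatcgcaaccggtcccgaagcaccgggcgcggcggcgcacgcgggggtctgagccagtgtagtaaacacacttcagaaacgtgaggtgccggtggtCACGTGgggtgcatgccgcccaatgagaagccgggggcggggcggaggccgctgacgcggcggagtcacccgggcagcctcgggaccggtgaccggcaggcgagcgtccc
Per3, chr4:151044616-151044915, minus strand: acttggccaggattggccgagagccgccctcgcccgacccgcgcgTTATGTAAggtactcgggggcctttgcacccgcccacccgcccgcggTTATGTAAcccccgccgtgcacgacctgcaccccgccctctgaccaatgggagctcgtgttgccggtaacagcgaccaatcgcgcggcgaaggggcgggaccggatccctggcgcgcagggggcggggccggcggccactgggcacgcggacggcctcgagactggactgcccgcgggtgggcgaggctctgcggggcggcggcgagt
The E-boxes of Ciart began 116, 58 and 44 bases before the start of the transcript, that of Per1 166 bases and that of Cry1 60 bases before it. The D-boxes of Per3 began 205 and 158 bases before it.

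The array values are one-colour fluorescence. Each is given as log2 of the processed spot signal minus the 75th percentile of its array, so that 1 unit is a doubling and 0 is a fairly bright probe; the values of different probes are not comparable with each other. In RNA of a whole tissue, fewer cells with a transcript and less of it per cell cannot be told apart. Each array held 59305 non-control spots, 66.4% to 69.4% of them well above background. No member spot was saturated, carried an outlier flag or lay on a patch of raised local background such as the one that took 1350 spots of control replicate 1. Over 297 probes spotted at least 5 times, the median SD between spots of one array was 0.041 to 0.061 on the log2 scale. Derl2, which checks the labels, read 2.13 and 2.20 in control mice and 0.81 and 0.70 in KO mice on its brighter probe. The cerebellar markers Pcp2 of Purkinje cells and Gabra6 of granule cells were well above background on all 4 arrays, and 3 of 3 markers of the suprachiasmatic nucleus, the master clock of the brain, were well above background on none. Choroid plexus markers were high on 1 array: their mean over 5 genes was 2.99 on control replicate 2 and between −2.14 and −1.40 on the other 3, and 5 of 5 were highest there. All arrays were on 1 slide, with each group at positions of its own, so position and group cannot be told apart.

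Between KO and control, no clock gene passed the test, and for 6 of the 10 the gap between mice of one group, averaged over both groups, was larger than the difference between the groups (background 50.7% of all probes). Per2 had the largest difference, 1.69-fold higher in KO, and Nr1d1 and Dbp were the 2 members lower in KO. Within each group, 1 mouse had the higher signal for nearly all members: control replicate 1 over control replicate 2 for 10 of 10 genes (50% of all probes), and KO replicate 1 over KO replicate 2 for 9 of 10 (53.7%). Ciart spanned 2.03-fold between the control mice and 2.28-fold between the KO mice. Fits were made with limma over 37516 probes, and p-values were adjusted over all of them by Benjamini-Hochberg; 0 of 10 members passed an adjusted p of 0.05 (background 0% of all probes) and 1 had an unadjusted p under 0.05 (background 14%). With 2 arrays in each group the precision is low, and an exact two-sided permutation of the arrays could not give a p under 0.333. Derl2 itself did not pass: its 2 probes differed by −1.41 and −1.73, each with a limma adjusted p of 0.273.

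**Figure D1:**
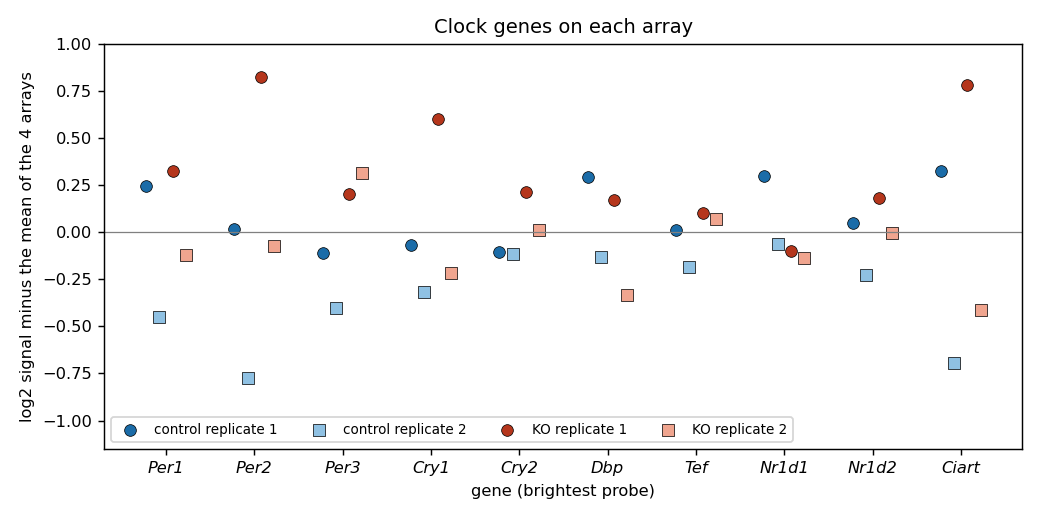
Log2 signal of the brightest probe of each clock gene (horizontal axis) minus that gene's mean over the 4 arrays (vertical axis); blue marks are control and red marks KO mice, circles replicate 1 and squares replicate 2. The circles of a group lie above its squares for all genes except Per3 in KO, and control replicate 2 is the lowest mark for 8 of the 10 genes.

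Period genes, the negative limb of the loop that light and hormones can also reset, came first. Per1 signals of the control mice were 3.89 and 3.19, and those of the KO mice 3.97 and 3.53. The replicate 1 mice were the high ones in both groups, and the groups overlapped. Control averaged 3.54 ± 0.49 (SD, n = 2) and KO averaged 3.75 ± 0.31 (SD, n = 2), which differ by 0.21 on the log2 scale (95% interval −0.59 to 1.003; limma adjusted p 0.769). The gap between the mice was 0.70 in control and 0.44 in KO, and 4.52% and 13.1% of all probes had gaps as large in these pairs. The sign of the difference turned without control replicate 2, to −0.14, and without KO replicate 1, to −0.02.

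Per2, a core repressor of the loop, read 1.76 and 0.97 in the control mice and 2.57 and 1.67 in the KO mice. KO replicate 1 was the highest array and control replicate 2 the lowest, while KO replicate 2 lay below control replicate 1. Control averaged 1.37 ± 0.56 (SD, n = 2) and KO 2.12 ± 0.64 (SD, n = 2), a difference of 0.75 (95% interval −0.37 to 1.88; limma adjusted p 0.473), and the gaps within the groups, 0.79 and 0.90, were larger than that. Leaving out each array in turn gave differences from 0.30 to 1.20. The second Per2 probe, far dimmer, read −4.78 and −4.86 in the controls and −4.39 and −5.14 in KO; its difference of 0.06 was much smaller than that of the bright probe, and only its KO pair was far apart.

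Per3, the Period gene that is dispensable for the core rhythm, was the exception in 2 ways. Its brighter probe read 0.18 and −0.11 in the control mice and 0.49 and 0.60 in the KO mice, so that both KO mice lay above both controls and KO replicate 2 was the higher of its pair. The difference was 0.51 (95% interval 0.13 to 0.90), with an unadjusted limma p of 0.0195 and an adjusted p of 0.299, the smallest of the 10 members. The other Per3 probe, which carries the accession of another transcript, read −2.70 and −3.13 in control and −2.73 and −2.65 in KO, and its groups overlapped.

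Cryptochromes are the partners of the Period proteins and the stronger repressors of ARNTL and CLOCK. Cry1 read −2.54 and −2.79 in the control mice and −1.87 and −2.69 in the KO mice. KO replicate 1 stood above the other 3 arrays, which lay within 0.24 of each other. Its group difference was 0.38 (95% interval −0.43 to 1.20; limma adjusted p 0.591), against a gap of 0.82 between the KO mice, a size that 2.95% of all probes reached in that pair. Without KO replicate 1 the difference was −0.02. The other Cry1 probe read −2.50 and −2.94 in control and −2.34 and −2.99 in KO, where both replicate 1 mice were high and the difference was 0.05.

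Cry2 was the steadiest member between the control mice, at 4.62 and 4.61, and read 4.94 and 4.74 in the KO mice. Both KO mice lay above both controls. Control averaged 4.61 ± 0.0062 (SD, n = 2) and KO 4.84 ± 0.14 (SD, n = 2), a difference of 0.22 (95% interval −0.09 to 0.54; limma adjusted p 0.458). It was 0.12 without KO replicate 1 and 0.32 without KO replicate 2.

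The PAR bZIP factors drive D-box genes, and Dbp is among the most strongly rhythmic transcripts of most tissues. Dbp read 5.92 and 5.50 in the control mice and 5.80 and 5.29 in the KO mice. The replicate 1 mice were high in both groups and the groups interleaved, so that the difference of −0.16 (95% interval −0.82 to 0.49; limma adjusted p 0.781) was smaller than the gaps of 0.42 and 0.51 within the groups. Its second probe gave 5.94 and 5.42 in control and 5.67 and 5.08 in KO, in the same order of arrays. The sign of the Dbp difference turned without control replicate 1, to 0.05, and without KO replicate 2, to 0.09.

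Tef read 6.16 and 5.96 in the control mice and 6.24 and 6.22 in the KO mice on its brightest probe. The KO mice were alike and lay above both controls by a small margin, with a difference of 0.17 (95% interval −0.15 to 0.49; limma adjusted p 0.543), which was 0.073 without control replicate 2 and 0.27 without control replicate 1. Its other 2 probes differed by 0.17 and 0.20, with overlapping groups, and on both of them the replicate 1 mouse of each group was the higher one.

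The REV-ERB receptors repress Arntl and Nfil3. Nr1d1 read 1.04 and 0.68 in the control mice and 0.64 and 0.60 in the KO mice. Control replicate 1 stood alone above the other 3 arrays, and both KO mice lay below both controls, KO replicate 1 only just below control replicate 2. The difference was −0.23 (95% interval −0.65 to 0.18; limma adjusted p 0.532); without control replicate 1 it was −0.06, and without control replicate 2 −0.41. Nr1d2 went the other way, at 3.23 and 2.96 in control and 3.37 and 3.18 in KO. Its groups overlapped and its difference was 0.18 (95% interval −0.22 to 0.58; limma adjusted p 0.606); without control replicate 2 it was 0.042, without KO replicate 1 0.084, without KO replicate 2 0.27 and without control replicate 1 0.32. The dimmer Nr1d2 probe read 1.95 and 1.79 in control and 2.23 and 2.05 in KO, with both KO mice above both controls and a difference of 0.27.

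Ciart (also called CHRONO), a repressor that binds the ARNTL-CLOCK pair, varied most between mice of one group. It read −1.10 and −2.12 in the control mice and −0.65 and −1.84 in the KO mice. Each group held 1 high and 1 low mouse, and each high mouse was above the low mouse of the other group. The gaps were 1.02 in control and 1.19 in KO, and 2.11% and 0.861% of all probes had gaps as large. The group difference was 0.37 (95% interval −1.09 to 1.82; limma adjusted p 0.774). It was −0.14 without control replicate 2 and −0.23 without KO replicate 1. The second Ciart probe had the same order of arrays, at −2.34 and −2.82 in control and −2.25 and −2.72 in KO, with gaps of 0.48 and 0.47.

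**Figure D2:**
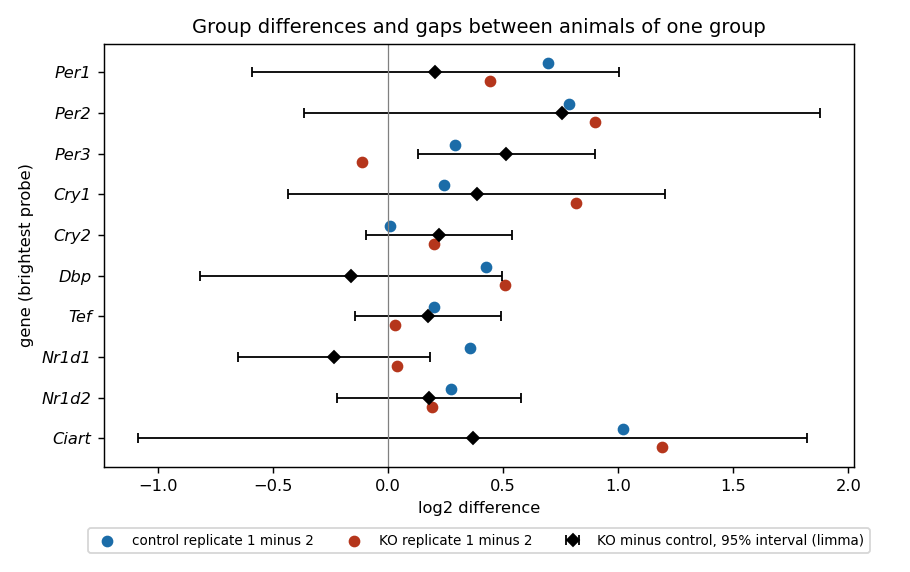
Log2 differences (horizontal axis) for the brightest probe of each clock gene (vertical axis): diamonds give KO minus control with the 95% interval from limma, n = 2 in each group; circles give replicate 1 minus replicate 2 in control (blue) and in KO (red). For 6 of the 10 genes the mean gap within the groups is larger than the group difference, and the interval leaves out 0 for Per3 alone, which had an adjusted p of 0.299.

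Over the 10 members, 8 had a higher mean in KO (45.2% of all probes did) and 2 a lower one. The groups did not overlap for 4 members, Per3, Cry2 and Tef with higher and Nr1d1 with lower KO values, which is 4 of 10 against 49.3% of all probes (3 of 10 higher against 22.5%, 1 of 10 lower against 26.9%). The median difference was 0.21, against −0.03 over all probes. It moved when 1 array was left out: it was 0.034 without KO replicate 1, 0.058 without control replicate 2, 0.38 without KO replicate 2 and 0.41 without control replicate 1. The mean gap within the groups was larger than the group difference for 6 of 10 members, against 50.7% of all probes. These last shares, of members without overlap and of members with the larger gap, are near those of all probes.

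The gaps between mice of one group were counted after the values had been seen, and the replicate numbers only name the mice. Control replicate 1 was above control replicate 2 for 10 of 10 members, against 50% of all probes, with a median gap of 0.32. KO replicate 1 was above KO replicate 2 for 9 of 10, against 53.7%, also with a median gap of 0.32; Per3 was the exception. In both groups at once this held for 9 of 10 members, against 31.2% of all probes, and for 16 of the 18 member probes. The count was 8 or 9 under every other scaling, background correction and probe rule tried. For the 6 pairs of arrays, the median absolute difference over the members was 0.32 in the control pair, where it was 0.13 over all probes, and 0.32 in the KO pair, where it was 0.16. The pair farthest apart was control replicate 2 with KO replicate 1, at 0.51 (all probes 0.19), a pair that was farthest under each scaling and background correction tried and with the mean of a gene's probes. Control replicate 2 with KO replicate 2, at 0.24 (all probes 0.18), and control replicate 1 with KO replicate 2, at 0.25 (all probes 0.22), were the nearest pairs. The second was the nearer under quantile normalization (0.24 against 0.28), spike-in scaling (0.24 against 0.30) and normexp (0.22 against 0.23). With the mean of a gene's probes it was at 0.28, farther apart than control replicate 1 with KO replicate 1 at 0.24. Control replicate 2 was also the array with high choroid plexus markers. Within the KO pair the mean of those markers was −1.40 on replicate 1 and −2.14 on replicate 2. Only 2 of the 5, Ttr and Folr1, were higher on replicate 1, while Kcnj13, Kl and Clic6 were slightly lower there. The part of the choroid plexus markers in the clock signals was not tested.

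**Figure D3:**
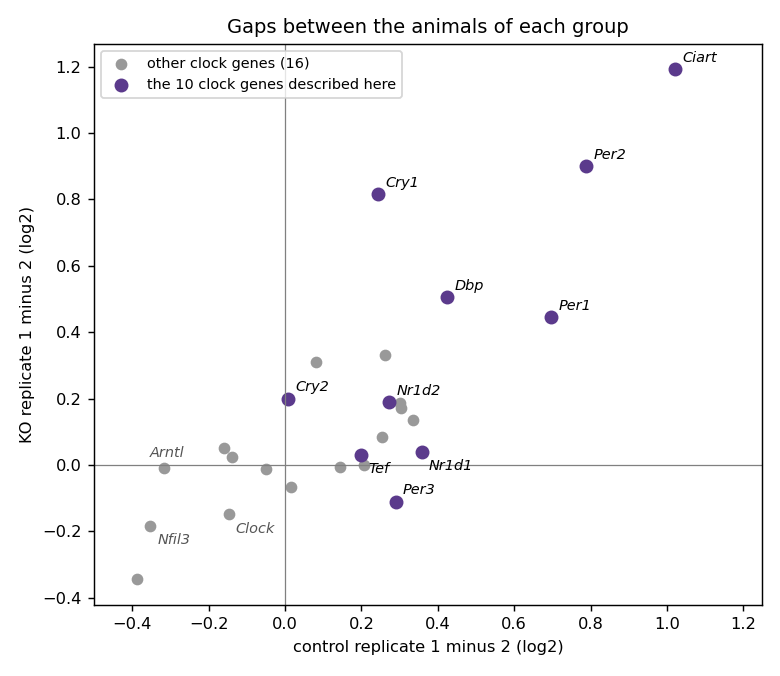
Gap between the control mice (replicate 1 minus 2, horizontal axis, log2) against the gap between the KO mice (vertical axis, log2), 1 point per gene; purple points are the 10 clock genes and grey points 16 other clock genes, each by its brightest probe. All purple points except Per3 lie above and to the right of 0, and Nfil3, Clock and Arntl lie below and to the left of it.

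The other genes of the clock were read from a list of 18, of which 17 had a named probe and 16 a probe above background. On the brightest probes of these 16, 0 passed the adjusted threshold in limma in either direction, and 0 had an unadjusted p under 0.05 (14% of all probes did). Among their dimmer probes 2 had such a p, a share near the 14% of all probes. They were a Rora probe with a difference of 0.62 (limma p 0.0074, adjusted 0.273) and an Arntl probe with 0.41 (limma p 0.048, adjusted 0.353). Both were named after their values were seen. The brightest Rora probe had a difference of −0.12. On the brightest probes 12 genes were higher in KO, against 45.2% of all probes, and 4 lower, with a median difference of 0.06. For 5 of the 16 the groups did not overlap, against 49.3% of all probes. Replicate 1 was the higher in both groups for 6 of the 16, against 31.2% of all probes, and the lower in both for 5. The smallest p-values belonged to Nampt, a clock-driven enzyme of NAD synthesis, with a difference of 0.28 (SE 0.15), and Csnk1e, a kinase of the Period proteins, with 0.16 (SE 0.10).

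Arntl, Clock and Nfil3 are repressed by the REV-ERB receptors or stand at the head of the loop, and Arntl and Nfil3 peak when Dbp and Nr1d1 are low. On its brightest probe Arntl read 0.77 and 1.08 in the control mice and 1.04 and 1.05 in the KO mice. Control replicate 1, high for Dbp and Nr1d1, was the low array here, as it was on the other 2 Arntl probes; these read −2.38 and −2.29 in control and −2.09 and −1.76 in KO, and −1.96 and −1.58 in control and −1.47 and −1.52 in KO, so that the KO pair had no shared order over the 3 probes. Clock read 3.29 and 3.44 in control and 3.35 and 3.50 in KO, and Nfil3 read 1.52 and 1.88 in control and 1.62 and 1.80 in KO. On these brightest probes both genes were lower in the replicate 1 mouse of each group, the opposite of 9 of the 10 members. The second Nfil3 probe gave the same order, at 1.33 and 1.65 in control and 1.46 and 1.62 in KO. The other 2 Clock probes did not: one read 0.48 and 0.61 in control and 0.70 and 0.57 in KO, and the other, far dimmer, −5.60 and −5.76 in control and −5.85 and −5.71 in KO. Npas2, the partner that can stand in for CLOCK, was not well above background on any array. Among genes outside the rule for named genes, chosen after their values were seen, the PAR bZIP gene Hlf read 1.83 and 1.53 in control and 1.61 and 1.42 in KO, with the array order of Dbp.

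The arms were set against each other on each array, with every gene centred on its own mean. The mean of Per1, Per2, Per3, Dbp, Tef, Nr1d1, Nr1d2 and Ciart, 8 genes, minus the mean of Arntl, Clock and Nfil3, 3 genes, was 0.31 on control replicate 1, −0.47 on control replicate 2, 0.34 on KO replicate 1 and −0.18 on KO replicate 2. The 2 arrays above 0 come from different groups. The mean of the 8 genes alone was 0.14 and −0.37 in control and 0.31 and −0.09 in KO. That of the 3 genes was −0.17 and 0.10 in control and −0.02 and 0.09 in KO. In each pair the 3 genes were less far apart than the 8, and in KO they lay close together. The contrast differed by 0.78 between the control mice and 0.51 between the KO mice, and by 0.16 between the group means. With the mean of a gene's probes in place of the brightest, the last of these was 0.037, and the gaps were 0.66 and 0.48. Dbp minus Arntl gave 0.51, −0.23, 0.12 and −0.40 in the same order of arrays, with 1 array of each group above 0. Both genes are also in the first contrast, so this is not a separate result. In the KO pair Arntl was nearly level, at 1.04 and 1.05, so the gap there is that of Dbp. These contrasts have no test, since they are scores over chosen genes on 4 arrays. Whether the mice of a group were killed at different hours was not tested.

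**Figure D4:**
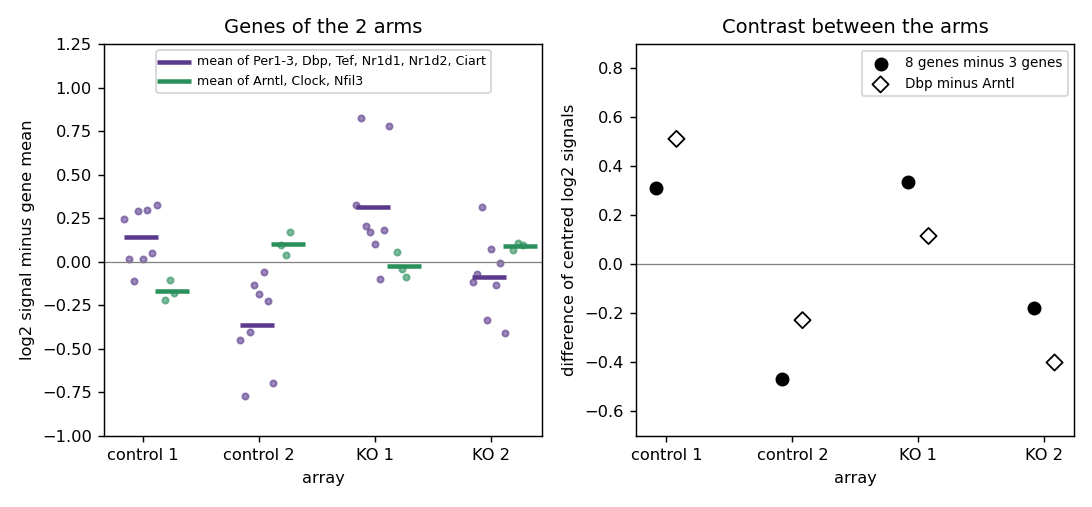
Left, log2 signal minus the gene's mean over the 4 arrays, for 8 clock genes (purple) and for Arntl, Clock and Nfil3 (green), with bars at the means; right, the difference between the means of the 2 sets (filled circles) and between Dbp and Arntl (open diamonds) on each array. Control replicate 1 and KO replicate 1 lie above 0 on the right, at 0.31 and 0.34 for the filled circles, and the other 2 arrays lie below it, at −0.47 and −0.18.

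Per1 also answers to glucocorticoid hormone and to neuronal activity, so the levels of such genes are given beside it; their part in the Per1 signals was not tested. Fkbp5, a co-chaperone induced by glucocorticoid, read 0.57 and −0.46 in the control mice and −0.08 and 1.47 in the KO mice, and Zbtb16 read 1.39 and −0.84 in control and 0.36 and 2.47 in KO. Both were high in control replicate 1 and KO replicate 2 and low in the other mice. Sult1a1, the member of that list with the smallest p, read 1.52 and 0.69 in control and 1.13 and 2.14 in KO. Of the 10 glucocorticoid-induced genes, 9 had their highest signal on KO replicate 2 and 0 of 10 had groups that did not overlap (49.3% of all probes). Fos, an immediate early gene, read 0.11 and 1.01 in the control mice and 1.43 and 0.85 in the KO mice, with control replicate 1 the lowest array. Of 11 immediate early genes, 0 passed the adjusted threshold in limma and 2 had an unadjusted p under 0.05, a share near the 14% of all probes. They were Arc, with a difference of −0.46 (SE 0.15), and Egr3, with −0.29 (SE 0.10). Of these 11, 1 was higher on replicate 1 in the control pair (50% of all probes) and 9 in the KO pair (53.7%). For 1 of the 11 it held in both pairs, against 31.2% of all probes and 9 of the 10 clock genes. Of the glucocorticoid-induced genes, 8 of 10 were higher on replicate 1 in control and 0 of 10 in KO. Gaps of a shared direction within a pair were therefore not particular to the clock genes. Differences between the lists were not tested.

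The genes whose signals lay nearest to those of Dbp over the 4 arrays, each centred on its mean, were Kcp, Rangap1, Mymk, Iqsec1 and Tex35, at Euclidean distances of 0.024 to 0.063 log2 units and with Pearson's r of 0.996 to 0.999 over 4 arrays. None of them is in the lists of clock genes. Their probes were far dimmer than that of Dbp, though well above background on all 4 arrays. On control replicate 1 they ran from −1.29 for Kcp to −5.12 for Tex35, where Dbp read 5.92. With 4 arrays such likeness is loose: 152 named genes lay nearer to the brightest Dbp probe than the second Dbp probe did, at a distance of 0.17.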

How the data were processed

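Per the labels' protocols, RNA of 4 cerebella was labelled with Cy3 for one-colour arrays from Agilent. The deposited scanner files give a processed intensity per spot, which Feature Extraction version 12.1.1.1 of Agilent background-subtracted and detrended, per the file headers; the submitters' processing notes name version 10.7.1.1. A deposited table of the authors' log2 values, whose centring is not stated, served as an alternative; its column medians were 0.0071, −0.19, −0.16 and −0.22, and member values centred over the arrays differed from those used here by at most 0.0027. All its columns were matched to samples.

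Spots with an outlier flag were left out, the log2 signals of a probe's remaining spots were averaged, and the array's 75th percentile was subtracted. A probe was kept if at least 1 group had it well above background on its 2 arrays, which held for 37516 of 56559 with a value on every array. Of 35886 probes with a RefSeq accession, 91.9% were named through a RefSeq gene table (GRCm38.p6). A gene is shown by its brightest probe, and the other probes of the members and of Arntl, Clock and Nfil3 are given beside it.

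The comparison of KO and control used limma 3.58.1 under R 4.3.3 (lmFit, eBayes, no covariates; 4.35 degrees of freedom), tested on simulated data. Nothing in the labels says how the mice were related, so p-values measure the spread between these samples. The named genes are the 10 members, Arntl, Npas2, Clock and Nfil3 with the 3 smallest p of the other clock genes, the 2 smallest p of the immediate early and glucocorticoid lists with Fos and Fkbp5, the 5 genes nearest to Dbp, and Derl2; 1 gene that this rule takes is not reported here. Members and lists were chosen with earlier results of these data known. Alternatives covered scaling, background correction, filters, variance model, replicate number, probe choice and each array left out. Precision is limited by the number of arrays.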

Additional observations from a re-analysis of the deposited data

How the results depend on the processing

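The count over all probes past the adjusted threshold, 0 by limma with 5265 at an unadjusted p under 0.05, was 1 under quantile normalization, scaling to the median of probes well above background, scaling to 7 spike-in probes and omission of patch spots, 2 under normexp with an offset of 50, and 4 with an intensity trend and robust variances; without 1 array it ran from 0 to 98, the latter without control replicate 2. None of the 10 clock genes passed in any setting that tested them, with adjusted p from 0.181 to 0.986. Of 160 member differences under alternatives, 153 kept their direction. This count overstates stability, because changes of the variance model, the replicate block and the filters on dim probes reuse the same differences. The 7 that turned all came from leaving out an array: Per1 to −0.14 without control replicate 2 and −0.016 without KO replicate 1 (range −0.14 to 0.55), Ciart to −0.14 and −0.23 under the same omissions (range −0.23 to 0.96), Cry1 to −0.023 without KO replicate 1 (up to 0.79), and Dbp to 0.050 without control replicate 1 and 0.091 without KO replicate 2 (down to −0.42). The number of members whose groups did not overlap, 4, was 5 under spike-in scaling and under normexp. Without 1 array it ran from 5 to 9, where fewer arrays can overlap, and was 9 without control replicate 1 or KO replicate 2. The count of members higher on replicate 1 in both groups, an added measure with alternatives chosen after seeing the data, was 8 or 9. The other results moved by less than the spread between replicates. For member differences with 1 array left out, arithmetic fixes this in advance, so it does not measure their stability. Replicate numbers 1 and 2 occur in both groups, but nothing in the labels pairs them. The deviations of same-numbered arrays correlated at 0.12 over all probes and at 0.73 over the 10 clock genes. With a replicate block 0 probes passed. Arrays of 2 mice per group limit what differences can be detected.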
